A study of Mus musculus with 18 samples.

Results

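Pseudogenes are copies of genes that have lost, or are thought to have lost, the ability to make the original protein. Of the 10965 genes in a deposited RNA-seq table from mouse embryonic stem cells (ESCs), 1189, or 10.8%, carry a gene biotype that contains the word pseudogene, and these 1189 are described here. They were chosen by that word alone and not by any measured value. By biotype, 1071 are processed pseudogenes, 44 unprocessed pseudogenes, 31 plain pseudogenes, 26 transcribed processed pseudogenes, 12 transcribed unprocessed pseudogenes, 3 polymorphic pseudogenes and 2 unitary pseudogenes. In the GENCODE M21 annotation, 8 of the 1189 have another biotype, among them Fam181b, which is listed there as protein coding. All 1189 had passed the filter of the authors on low values, which asked for at least 5 TPM (reads scaled to gene length and to a fixed library total) in at least 3 samples.

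The study asked how loss of the transcription factor Zeb2 affects the exit from pluripotency and neural differentiation of ESCs. The 18 libraries are in 6 groups of 3. The Ctrl cells are labelled Zeb2 fl/fl, carrying an allele that Cre recombinase can delete, and the KO cells Zeb2 -/-. All are of the CD1 strain according to the labels. Cells of both genotypes were sampled at d0, as feeder-free ESCs in serum-free medium with both kinase inhibitors of 2i and LIF, at d4, as embryoid bodies in medium with 15% serum, and at d6, as embryoid bodies in N2B27 medium to which 500 nM retinoic acid had been added on d4. The methods describe separate derivations of KO lines, one by a Cre vector in floxed control lines on the CD1 background and another from crosses of heterozygous mice on a mixed background. Which line gave which library is not given in the sources used here, so line and Zeb2 allele cannot be told apart.

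Processed pseudogenes arise when a spliced messenger RNA is copied back into DNA and inserted elsewhere in the genome, so they lack introns and usually lie far from the parent gene. Unprocessed pseudogenes arise by duplication of a stretch of genome and often stay beside the parent. Highly expressed genes, such as those of ribosomal proteins and of glycolysis, have left many processed copies, and so have genes active in early embryos and the germ line, where a new copy can be inherited. Because a copy can be nearly identical to its parent, a short read from one can match the other.

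How close the copies are to their parents is shown here with the coding part of Dppa5a, a KH-domain RNA-binding protein of pluripotent cells, and the same part of its 5 copies among the pseudogenes. Each line holds 60 bases in GRCm38, 5′ to 3′, and capitals mark bases that differ from the parent. The sites are chr9:78367790-78367849 (minus strand) for Dppa5a, chr5:29538322-29538381 (plus) for Gm6083, chrX:8654634-8654693 (plus) for Gm6798, chr16:94359069-94359128 (minus) for Gm15310, chr17:78177718-78177777 (minus) for Gm5229 and chr1:13062161-13062220 (plus) for Gm5250.
Dppa5a: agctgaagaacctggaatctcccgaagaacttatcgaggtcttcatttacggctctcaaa
Gm6083: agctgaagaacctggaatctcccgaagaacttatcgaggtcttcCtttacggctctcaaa
Gm6798: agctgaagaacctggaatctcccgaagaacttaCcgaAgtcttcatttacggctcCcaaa
Gm15310: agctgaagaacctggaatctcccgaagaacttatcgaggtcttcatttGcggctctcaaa
Gm5229: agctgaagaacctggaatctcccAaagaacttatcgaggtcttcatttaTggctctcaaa
Gm5250: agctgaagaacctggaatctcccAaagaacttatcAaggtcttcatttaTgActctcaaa

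Further pairs are shown because their levels are followed below. Tdgf1 encodes a co-receptor of the growth factor Nodal, Mdk the growth factor midkine, and Rps24 a protein of the small ribosomal subunit. The same marking is used, and the sites are chr9:110940760-110940819 (minus) for Tdgf1, chr16:3730910-3730969 (plus) for Tdgf1-ps1, chr2:91931181-91931240 (minus) for Mdk, chr11:102545702-102545761 (plus) for Mdk-ps1, chr14:24491989-24492048 (plus) for Rps24, chrX:79195198-79195257 (plus) for Rps24-ps3, chr16:45205251-45205310 (plus) for Gm6030 and chr3:3792048-3792107 (plus) for Rps24-ps2.
Tdgf1: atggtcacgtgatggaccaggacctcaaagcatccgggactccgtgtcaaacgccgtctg
Tdgf1-ps1: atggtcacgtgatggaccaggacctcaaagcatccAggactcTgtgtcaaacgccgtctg
Mdk: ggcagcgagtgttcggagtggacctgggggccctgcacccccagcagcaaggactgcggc
Mdk-ps1: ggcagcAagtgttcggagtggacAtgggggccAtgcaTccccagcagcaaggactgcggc
Rps24: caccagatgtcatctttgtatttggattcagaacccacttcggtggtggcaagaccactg
Rps24-ps3: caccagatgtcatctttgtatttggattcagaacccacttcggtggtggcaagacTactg
Gm6030: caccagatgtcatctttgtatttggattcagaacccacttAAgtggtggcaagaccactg
Rps24-ps2: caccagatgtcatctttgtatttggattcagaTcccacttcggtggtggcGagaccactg

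The 36-base reads of the study are shorter than many of the identical stretches in these lines. For 1142 of the 1189 pseudogenes a parent was found by sequence, as the protein-coding transcript that matched at least 50% of the copy, and 814 of these parents, 578 different genes, are in the table. Identity over the match had a median of 95.5%, with quartiles of 91.2% and 98.4%. Of 169 pseudogenes whose symbol names a parent, 90 have that parent in the table, and in all 90 the sequence search returned the same gene. Gapdh, the glycolytic enzyme, had 14 copies, Rpl31 12 and Rps2 11, and 75 ribosomal protein genes together had 230. The copy lay on another chromosome than its parent for 1069 pseudogenes, and 161 pseudogenes lay on X. In the annotation, 778 lie outside other genes, 345 in an intron and 52 on an exon of another gene. Of the windows of 36 bases along a pseudogene, a median of 36.2% occurred in a transcript of another gene. Every window did so in 59 pseudogenes and none did in 64. How reads that match several places were handled, and whether strand was used, is not given in the sources used here, so reads of such a pseudogene and its parent, or of a gene on the opposite strand, cannot be told apart.

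The libraries held 9624677 to 15621169 reads assigned to genes of the table, with a median of 12133852. The pseudogenes took 1.49% to 1.93% of these reads but 8.94% to 10.9% of the summed TPM, since TPM divides by length and their median length was 519 bases against 4670 for other genes. The median number of reads per pseudogene was 31 to 49 per library, against 368 to 708 for other genes, so differences in pseudogenes were measured with fewer reads. The summed TPM of 8 pluripotency genes was 5192 to 5435 in Ctrl at d0 and 988 to 1140 in Ctrl at d6, but 3417 to 3676 in KO at d6, while 7 neural genes summed to 428 to 467 in Ctrl and 230 to 247 in KO at d6, and to 195 to 241 and 108 to 122 at d0. Ranges of other lineage markers were also apart on the days given here: 3 measured mesoderm genes summed to 191 to 234 TPM in Ctrl and 4.25 to 5.32 TPM in KO at d4, 5 endoderm genes to 81.5 to 123 and 15.9 to 22.7 at d6, and 4 trophectoderm genes to 136 to 155 and 198 to 232 at d4. At d6 the trophectoderm ranges overlapped, at 1177 to 1823 TPM in Ctrl and 1080 to 2121 TPM in KO. Of the fibroblast feeder markers, 3 measured genes summed to at most 4.45 TPM at d0. The part of these lineages in the results below was not tested. Zeb2 had a mean of 7.66 TPM in Ctrl libraries of d6 and 0.681 TPM in KO libraries, and on each day every KO library was below every Ctrl library. In these bulk samples fewer cells of a type and less RNA per cell cannot be told apart.

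The libraries numbered replicate 2 stood apart in the pseudogenes. With the replicate number as a term in limma, 50 pseudogenes were higher in replicate 2 than in replicates 1 and 3 at a Benjamini-Hochberg adjusted p below 0.01, against 0.492% of all genes. Only 4 genes without a pseudogene biotype were, and 1 of them, Rpl13-ps3, has a pseudogene symbol beside its protein-coding biotype. By limma 0 pseudogenes were lower in replicate 2, with 85 at an unadjusted p below 0.05, and voom on the recovered reads found 43 higher and 0 lower. In replicate 1, 35 pseudogenes were lower, against 0.356% of all genes. Rps12-ps9, a copy of the small-subunit gene Rps12, is printed with its parent because it was among the most affected. The sites are chr10:23786774-23786833 (minus) for Rps12 and chr8:123206684-123206743 (plus) for Rps12-ps9, and capitals mark bases that differ from the parent.
Rps12: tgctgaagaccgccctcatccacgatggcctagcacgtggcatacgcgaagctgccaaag
Rps12-ps9: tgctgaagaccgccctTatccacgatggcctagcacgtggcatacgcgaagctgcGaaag

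Rps12-ps9 had 1 to 8 reads in the replicate 1 libraries, 32 to 56 in the replicate 2 libraries and 6 to 13 in the replicate 3 libraries, a log2 difference of 2.45 for replicate 2 (adjusted p = 4.04e-06). Every replicate 2 library was above every other library, in both genotypes and on all days. Another 2 copies, chosen after their values were seen, had the same order: Gm11989, a copy of the large-subunit gene Rpl7a, with 0 to 2, 17 to 29 and 1 to 5 reads, and Gm6283, a copy of Gapdh, with a log2 difference of 2.30. For 32 of the 50, all replicate 2 libraries were above all others. The 50 together took 21.1 to 28.9 CPM (reads scaled to the library total) in replicate 1, 84.2 to 110 in replicate 2 and 31.4 to 51.5 in replicate 3. A ribosomal protein gene was the parent of 58.0% of the 50, against 17.6% of the remaining pseudogenes. The number of all pseudogenes below 5 TPM was 266 to 321, 162 to 206 and 215 to 262 in libraries of replicates 1, 2 and 3. The table itself is touched: 134 pseudogenes, 41 of the 50 among them, would not have met the 5 TPM filter without the replicate 2 libraries. Without those of replicates 1 and 3 the numbers were 45 and 64. That these 41 were high in replicate 2 was thus in part set by the filter, which bears on all values given for the 50. The 50 were also low, with a median of 4.21 for their mean TPM, against 24.3 for the remaining pseudogenes. Since each replicate number holds 1 library per group, genotype and replicate number are not confounded. Of the 50, 0 were called between KO and Ctrl on any day by limma or voom, with 1 at an unadjusted p below 0.05 at d4 and 0 at d0 and d6. These fits had no replicate term, so the difference by which the 50 were chosen widened the spread within each group. Calls among them were therefore unlikely, and the count does not show whether they differ between KO and Ctrl. What sets replicate 2 apart was not tested.

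**Figure D1:**
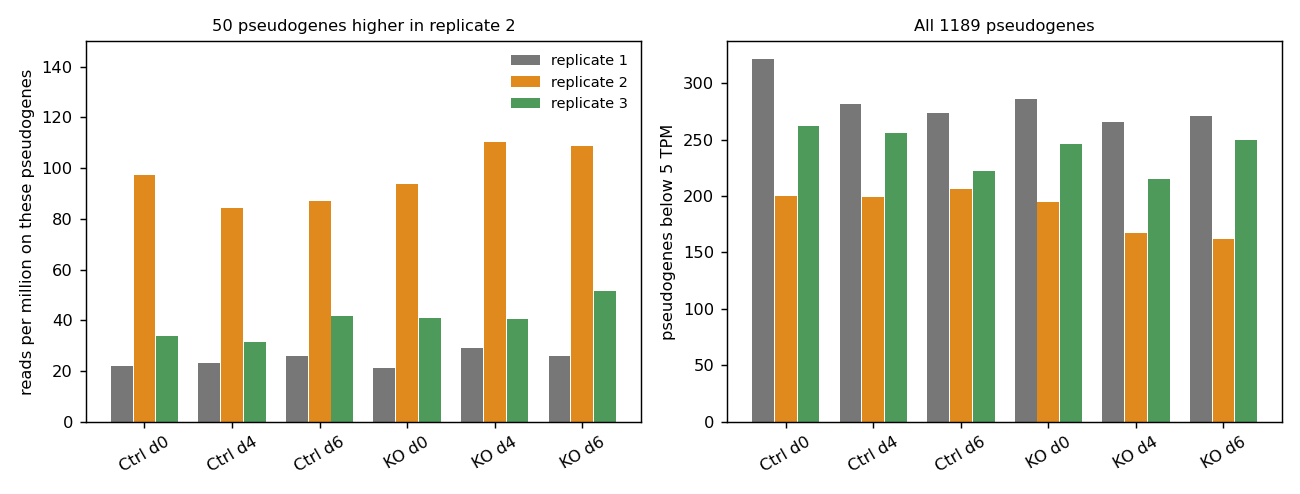
CPM on the 50 pseudogenes raised in replicate 2 (left) and the number of the 1189 pseudogenes below 5 TPM (right), 1 bar per library, for the 6 groups with replicates 1, 2 and 3 side by side. In each group replicate 2 has the tallest bar on the left, at 84.2 to 110 CPM, and the shortest bar on the right.

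The counts of pseudogenes that differed between KO and Ctrl grew from d0 to d6. At d0, 46 were higher and 32 lower in KO (limma on log2(TPM + 1), adjusted p below 0.01), where 10.6% and 16.4% of all genes in the table were called higher and lower. Of these 46, 13 lie elsewhere but have their parent on chromosome 8 and 12 have theirs on chromosome 12, where genes were higher in KO at d0, as described below. At d4 the numbers were 118 and 57, against 12.7% and 32.7% of all genes, and at d6 136 and 81, against 17.9% and 34.3%. The shares of pseudogenes called, 6.56%, 14.7% and 18.3% on d0, d4 and d6, were below the 27.0%, 45.5% and 52.3% of all genes on each day, beside the difference in reads given above. At d4 and d6 more pseudogenes were called higher than lower, while more of all genes were called lower. The median log2 difference was -0.03, 0.15 and 0.07 over the pseudogenes and -0.07, -0.16 and -0.14 over all genes.

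The split depended on the scaling. Dividing by median-ratio size factors moved the median of all genes by 0.04, 0.17 and 0.15 at d0, d4 and d6 and gave 57 higher and 19 lower, 205 and 31, and 222 and 51. The median of the pseudogenes minus that of all genes was 0.04, 0.31 and 0.21 without these factors. With them it was 0.04, 0.30 and 0.21. Without the 6 replicate 2 libraries, 19 were higher and 17 lower at d0, 35 and 22 at d4, and 88 and 48 at d6. Of the 46 called higher at d0, 18 were still called, and of the 118 at d4, 31. Leaving out 6 of the 18 libraries leaves fewer per group, so here and below calls can be lost even where the difference hardly changes. The shares of all genes called under these alternatives are not given, here or below. The counts therefore do not show whether pseudogenes moved more than other genes. The median of the processed pseudogenes at d4, transcribed ones included, was 0.16 with all libraries and 0.14 without replicate 2. Replicates 1 and 3 were not left out in the same way. In the 64 pseudogenes with no window shared with another transcript, 3 were higher at d0, 2 higher and 1 lower at d4, and 6 higher and 1 lower at d6. The filter also bears on these counts: 144 pseudogenes would not have met it without the KO libraries and 97 not without the Ctrl libraries. A pseudogene can be in both of these numbers. All pseudogenes together summed to a median of 83567 TPM in Ctrl and 96782 TPM in KO at d4, and 82863 and 91990 TPM at d6. The log2 ratio of the group means, KO to Ctrl, was 0.19 at d4 and 0.17 at d6, and -0.01 at d0. An exact two-sided permutation test of the means gave p = 0.1 at d4 and at d6, the smallest that 3 against 3 libraries allow, and p = 0.9 at d0.

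Tdgf1-ps1, a processed copy of Tdgf1 on chromosome 16, was higher in KO at d4 and d6. It had 489.8, 603 and 494 TPM in Ctrl and 472, 498 and 547 TPM in KO at d0. At d4 the copy had 263, 235 and 213 TPM in Ctrl and 603, 678 and 576 TPM in KO, which became 74.0, 32.0 and 69.2 TPM against 1156, 549.9 and 717 TPM by d6. The groups overlapped at d0 and were apart on both later days. The log2 difference rose to 3.79 ± 0.26 (SE, n = 3 per group) at d6 (limma, adjusted p = 4.39e-09). Tdgf1 itself differed by 3.81 ± 0.16 at d6 (adjusted p = 1.07e-11), from 28.4, 21 and 25.7 TPM in Ctrl to 519, 291 and 312 TPM in KO. The copy is 98.8% identical to Tdgf1, and 63.8% of its windows occur in another transcript. Its TPM was above that of its parent in every library, and the log2 ratio of copy to parent was lower in KO by only 0.02 at d6 (-0.02, exact permutation p = 1.0).

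Of the 5 copies of Dppa5a printed above, 3 were called higher in KO at d4 and d6. Gm6083 had 387, 312 and 289.5 TPM in Ctrl and 804, 655 and 715 TPM in KO at d4, and 261, 182 and 169.9 against 696, 517 and 551 at d6. No KO library of Gm6083 was as low as a Ctrl library on either day, and the log2 differences were 1.14 ± 0.15 (limma, adjusted p = 1.16e-05) and 1.53 ± 0.15 (adjusted p = 2.63e-07). Gm6798 differed by 1.79 ± 0.13 at d6 (adjusted p = 4.88e-09) and Gm15310 by 1.53 ± 0.37 (adjusted p = 0.00199), beside 1.59 ± 0.12 for Dppa5a. Gm15310 overlaps an exon of Pigp on the same strand, and its call at d4 (1.49, adjusted p = 0.00294) was lost without the replicate 2 libraries (1.46, adjusted p = 0.0111), and without Ctrl replicate 2 (adjusted p = 0.0126), Ctrl replicate 3 (0.0146) or KO replicate 1 (0.015) of d4. The other two, Gm5229 and Gm5250, stayed at or below 10.7 TPM in every library and had log2 differences of 0.68 and 0.54 at d6, with adjusted p of 0.274 and 0.488. They share fewer windows equal to Dppa5a, 10.2% and 17.5%, than Gm6083, Gm6798 and Gm15310, at 33.8%, 31.1% and 32.3%.

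Dppa3-ps, a copy on X of the maternal factor gene Dppa3, was lower in KO at d0 and d4. It had 240.0, 208 and 197 TPM in Ctrl and 115, 84.9 and 107 TPM in KO at d0, and 106, 71.6 and 71.7 against 41.9, 30.7 and 41.1 at d4. Every KO library was below every Ctrl library on both days, with log2 differences of -1.07 ± 0.18 (limma, adjusted p = 0.000232) and -1.10 ± 0.18 (adjusted p = 9.92e-05). At d6 the groups overlapped and the difference was 0.35 (adjusted p = 0.111). Dppa3 was lower by 1.01 and 1.4 on the log2 scale at d0 and d4 and higher by 0.58 at d6. Of the remaining copies of such genes, Gm13259, a distant copy of Dppa3 with no shared window, was higher at d6 (1.48, adjusted p = 0.00488), as was Gm6539, a distant copy of Pou5f1, which encodes Oct4 (1.09, adjusted p = 0.00541). Both were low, at most 8.87 TPM in any library, and both calls were lost without the replicate 2 libraries (adjusted p = 0.0413 and 0.0223). Gm14663, a copy of the nuclear receptor gene Esrrb, was not called on any day, and at d6 its difference was 0.47 (adjusted p = 0.114) beside 0.67 for Esrrb.

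**Figure D2:**
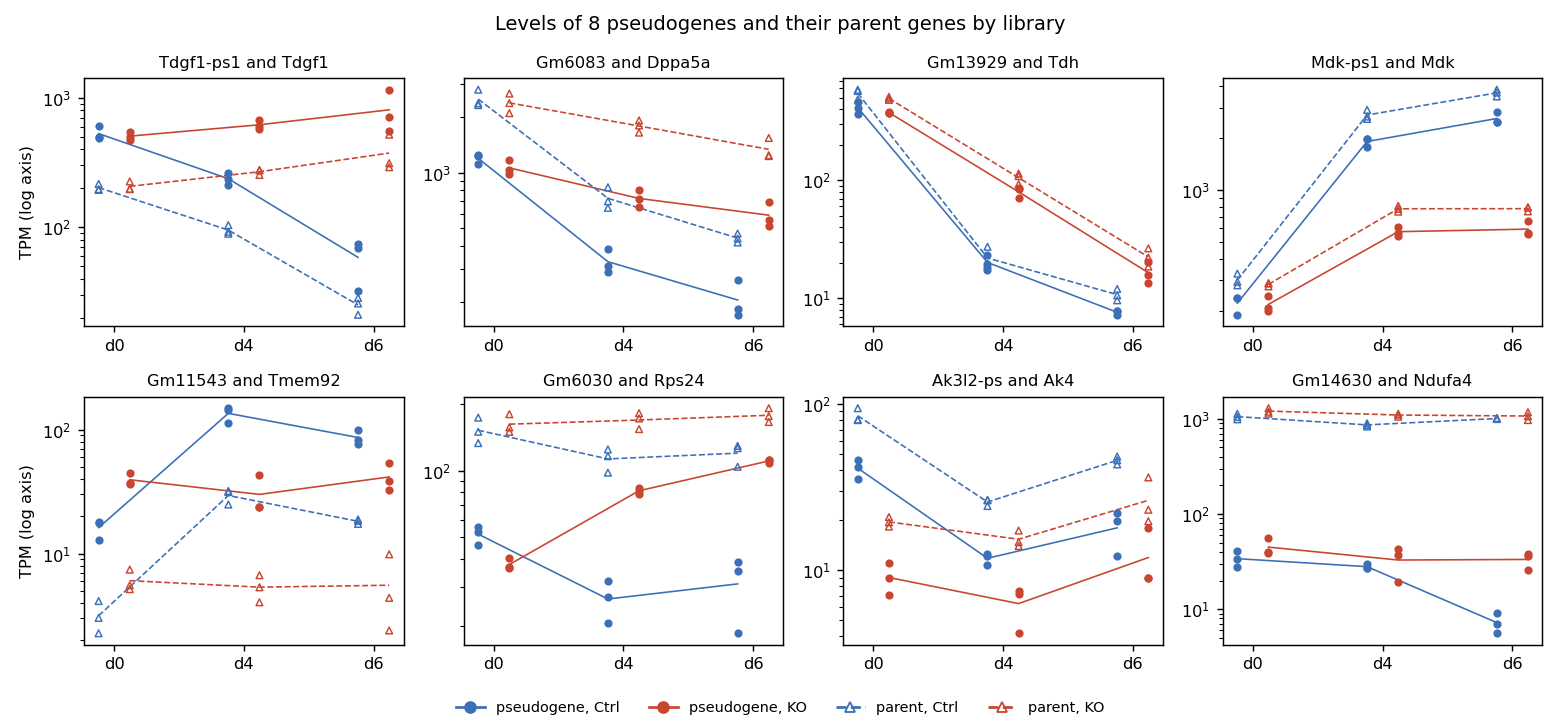
TPM on a log axis at d0, d4 and d6 for 8 pseudogenes (filled circles, solid lines) and their parents (open triangles, dashed lines), with Ctrl in blue and KO in red, 1 point per library and lines through the group means. Tdgf1-ps1, Gm6083 and Gm13929 follow their parents and are higher in KO at d4 and d6, Mdk-ps1 and Gm11543 are lower there, and Gm14630 differs at d6 while Ndufa4 does not.

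Mdk-ps1 was lower in KO than in Ctrl at d4 and d6, after a smaller rise from d0. Midkine is a secreted growth factor induced by retinoic acid. The copy had 237, 189.5 and 238 TPM in Ctrl and 245, 200.1 and 208 in KO at d0, and rose in Ctrl to 1969, 1790.5 and 1983 TPM by d4 and to 2846, 2475 and 2483 TPM by d6. In KO it reached 544, 567 and 613 TPM on d4 and 658, 560.2 and 565 TPM on d6, below every Ctrl library of the same day. The log2 differences of -1.73 ± 0.10 at d4 (limma, adjusted p = 1.15e-09) and -2.13 ± 0.10 at d6 (adjusted p = 3.67e-11) lay beside -1.80 and -2.23 for Mdk. Only 10.1% of the windows of Mdk-ps1 occur in another transcript, and it lies in an intron of Gpatch8 on the opposite strand.

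Gm13929, a copy of Tdh, had the largest positive KO minus Ctrl difference at d4 after Gm7765 among pseudogenes called without overlap. Tdh encodes threonine dehydrogenase, on which mouse ESCs rely. Gm13929 had 463, 413 and 363 TPM in Ctrl and 379, 371 and 375 TPM in KO at d0, then 23.4, 19.5 and 17.5 against 83.9, 70.2 and 85.2 at d4, and 7.25, 7.83 and 7.74 against 15.7, 13.5 and 20.2 at d6. The copy fell in both genotypes, and less far by d4 in KO. The KO minus Ctrl difference was 1.94 ± 0.13 at d4 (limma, adjusted p = 5.92e-09) and 1.00 ± 0.13 at d6 (adjusted p = 4.75e-06), with 2.22 and 0.99 for Tdh. Gm3470, a copy of the RNA-binding gene Rbpms2 with 1 mismatch over 420 bases, differed by 1.33 at d4 and 2.11 at d6, beside 1.18 and 2.39 for Rbpms2.

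More unprocessed pseudogenes were called lower than higher in KO at d4 and d6. Of the 44, 16 (36.4%) were called lower and 1 higher at d4, where 32.7% of all genes were called lower and 12.7% higher. At d6 the numbers were 10 (22.7%) and 1, against 34.3% and 17.9% of all genes, so the shares called lower were close to or below those of all genes. The median differences were -0.41 and -0.44. With the 12 transcribed unprocessed pseudogenes added, 21 were lower at d4 and 16 at d6, and 9 and 7 without the replicate 2 libraries. Of the 1071 processed pseudogenes, 104 were higher and 31 lower at d4 and 117 and 58 at d6. A cluster on chromosome 11 beside Tmem92, which encodes a transmembrane protein, holds some of the unprocessed pseudogenes. Of 6 pseudogenes with Tmem92 as parent, 5 were lower at both d4 and d6. Gm11543, at chr11:94828186-94828930 in GRCm38, had 143, 114 and 149 TPM in Ctrl and 42.8, 23.7 and 23.6 TPM in KO at d4, and 100.2, 83.4 and 76.1 against 53.6, 38.7 and 32.4 at d6. At d0 the order was the reverse, with 18.1, 17.7 and 12.8 TPM in Ctrl and 37.0, 36.7 and 44.7 in KO, and the groups did not overlap on any of the days. Its log2 differences were 1.24 ± 0.22 at d0 (limma, adjusted p = 0.000289), -2.18 ± 0.22 at d4 (adjusted p = 5.95e-07) and -1.06 ± 0.22 at d6 (adjusted p = 0.000481). Gm11544, Gm11545, Gm11546 and AA623943 differed by -2.45, -2.44, -1.75 and -2.37 at d4, and Tmem92 by -2.27 ± 0.30. Tmem92 was itself low, at most 32.0 TPM in any library, and every copy but Gm11546 reached 90.9 TPM or more in at least 1 Ctrl library at d4. In these copies at most 16.4% of windows equal Tmem92. Without the replicate 2 libraries the d6 calls of Gm11543, Gm11544, Gm11545 and AA623943 were lost (adjusted p = 0.0135, 0.0181, 0.0125 and 0.0425), as was that of AA623943 at d4 (0.0137) and, without KO d6 replicate 3, at d6 (0.012).

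Pseudogenes without a clear parent in the table, or without a position in the annotation, also held large differences. Gm2022, for which no position was found, had 2.75, 2.61 and 6.55 TPM in Ctrl and 17.8, 18.0 and 24.3 TPM in KO at d0, and 68.3, 63.8 and 85.8 against 25.6, 13.7 and 10.5 at d4. It was thus higher in KO at d0 (log2 difference 2.16, limma adjusted p = 0.000557) and lower at d4 (-2.15, adjusted p = 0.000328) and d6 (-1.58, adjusted p = 0.00304), and all 3 calls were lost without the replicate 2 libraries (adjusted p = 0.0315, 0.0153 and 0.075). Fam181b, the gene that GENCODE lists as protein coding, had 13.3, 13.5 and 13.6 TPM in Ctrl and 1.03, 1.87 and 1.31 TPM in KO at d6, a difference of -2.61 ± 0.23 (adjusted p = 7.86e-08). Gm6189, a copy of the mRNA export factor gene Gle1, was lower by 2.32 at d4 and lies opposite to an exon of Gm29125. In each of these 3 the KO and Ctrl libraries were apart on the days given.

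The copies of ribosomal protein genes that were called were all higher in KO. Of the 230 pseudogenes with such a parent, 26 (11.3%) were called higher at d4 and 21 (9.13%) at d6, below the 12.7% and 17.9% of all genes called higher on those days, with medians of 0.37 and 0.20, against 1 called and a median of 0.03 at d0. By limma 0 were called lower on any day, with 2, 5 and 6 at an unadjusted p below 0.05 at d0, d4 and d6, and voom also called 0 lower. Of all pseudogenes 9.92% and 11.4% were called higher at d4 and d6. The 68 ribosomal protein genes that are no pseudogenes had medians of 0.12, 0.34 and 0.29 at d0, d4 and d6, and 34 (50.0%) and 36 (52.9%) were called higher at d4 and d6. The medians of the 230 copies at d4 and d6 stayed above 0 under each scaling tried, at 0.50, 0.61 and 0.54 for d4 with median-ratio factors, quantile normalization and voom. Without the replicate 2 libraries 5 were higher at d4 and 8 at d6, and the median at d4 was 0.33.

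Of the 6 copies of Rps24, the 3 printed above had unequal differences. Rps24-ps3, the closest, had 808, 535 and 603 TPM in Ctrl and 995, 976 and 905 TPM in KO at d4, and Rps24 125, 98.0 and 116 against 172, 182 and 154. Both were higher in KO by 0.58 on the log2 scale (limma, adjusted p = 0.000698 and 0.000434). Gm6030 had 46.4, 53.0 and 55.9 TPM in Ctrl and 36.3, 40.2 and 36.8 TPM in KO at d0, then 31.8, 20.6 and 26.8 against 83.9, 78.8 and 80.9 at d4, and 38.8, 18.5 and 35.4 against 112, 108 and 112 at d6. The KO libraries of Gm6030 were thus below all Ctrl libraries at d0 and above all of them at d4 and d6, by 1.61 ± 0.20 (adjusted p = 5.15e-06) and 1.88 ± 0.20 (adjusted p = 5.25e-07). The log2 ratio of Gm6030 to Rps24 was higher in KO by 1.02 at d4 and 1.31 at d6 and lower by 0.54 at d0, with an exact permutation p of 0.1 on each day, the smallest possible. Rps24-ps2 differed by 1.88 at d4 and 1.59 at d6, and its calls were lost without the replicate 2 libraries (adjusted p = 0.0208 and 0.017). Gm6030 and Rps24-ps2 lie outside other genes, and 35.5% and 26.1% of their windows equal Rps24, against 68.7% for Rps24-ps3.

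Gm14630 on X differed at d6 where its parent did not, and 2.84% of its windows occur in another transcript. Its parent Ndufa4 encodes a subunit of cytochrome c oxidase. The sites shown are chr6:11906049-11906108 (minus) for Ndufa4 and chrX:57631853-57631912 (minus) for Gm14630, and capitals again mark differing bases.
Ndufa4: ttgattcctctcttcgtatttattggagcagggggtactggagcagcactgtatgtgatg
Gm14630: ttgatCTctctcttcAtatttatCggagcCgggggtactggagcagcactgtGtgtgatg

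Gm14630 had 40.8, 27.7 and 33.5 TPM in Ctrl and 38.7, 56.1 and 40.0 TPM in KO at d0, and 9.05, 5.6 and 7.08 against 38.4, 36.1 and 25.6 at d6. At d6 the groups were apart, by 2.06 ± 0.25 on the log2 scale (limma, adjusted p = 2.64e-06), while at d0 and d4 they overlapped. Ndufa4 had 1006, 1019 and 995 TPM in Ctrl and 971, 1064 and 1174 TPM in KO at d6, a difference of 0.08 (adjusted p = 0.322). The log2 ratio of copy to parent was higher in KO by 1.98 at d6 (exact permutation p = 0.1). Gm7765, a copy of Gapdh with 2.87% of windows in another transcript, was called higher at d4 and d6 as well. It had 1.26, 2.47 and 0.27 TPM in Ctrl and 8.31, 11 and 8.62 TPM in KO at d4, and 1.14, 2.54 and 2.38 against 15.5, 7.35 and 12.3 at d6. The differences were 2.25 ± 0.31 (adjusted p = 1.53e-05) and 2.05 ± 0.31 (adjusted p = 2.48e-05), with no overlap between the groups on either day.

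Over the 814 pairs of a pseudogene and a parent in the table, differences went together. Across pairs, which share libraries and in part reads, Pearson r between the KO minus Ctrl differences of copy and parent was 0.60 for d0, 0.69 for d4 and 0.68 for d6. Where both were called they had the same direction in 49 of 49 pairs at d0, 108 of 109 at d4 and 138 of 139 at d6. The copy alone was called in 9, 24 and 22 pairs and the parent alone in 154, 245 and 262. In the 42 pairs in which the copy shared no window with another transcript, r was 0.31, 0.19 and 0.32. The 64 pseudogenes without a shared window had a median of 6.93 TPM, against 39.9 TPM where every window was shared. Pairs were also split by the percent of windows with at most 1 difference from the parent. In 199 pairs with up to 25%, r was 0.66, 0.61 and 0.55 at d0, d4 and d6. In 267 pairs with 75% to 100%, r was 0.59, 0.71 and 0.78. The part of shared reads and of level in these values was not tested. At d4 the pair with opposite calls was Gm12859 and Tomm20, a receptor of mitochondrial protein import. Gm12859 had 9.21, 5.63 and 8.01 TPM in Ctrl and 0.789, 1.33 and 1.64 TPM in KO (-1.93 ± 0.46, limma adjusted p = 0.00202), and Tomm20 differed by 0.25. The call of Gm12859 was lost without KO d4 replicate 1 (adjusted p = 0.0108) and without the replicate 2 libraries (0.0104). At d6 the pair was Gm16411 and 4933402E13Rik, both on X. Gm16411 had 10.1, 9.76 and 10.0 TPM in Ctrl and 22.6, 14.3 and 13.9 TPM in KO (0.68 ± 0.17, adjusted p = 0.00224), and its call was lost without KO d6 replicate 1 (0.46, adjusted p = 0.0125). The parent, which covers 57.0% of the copy, differed by -1.75.

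**Figure D3:**
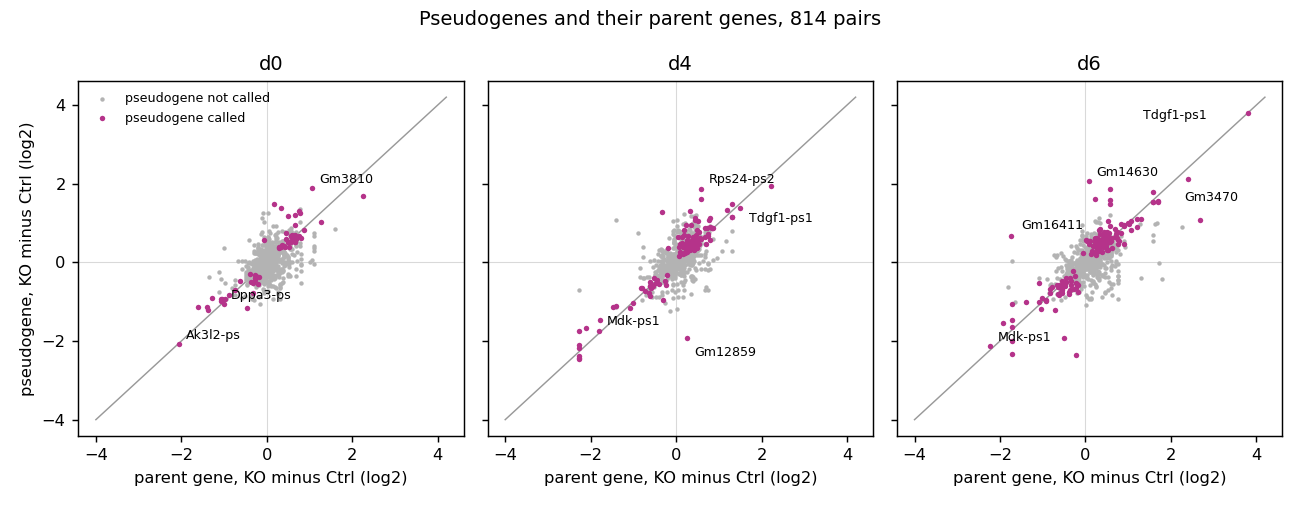
Log2 difference KO minus Ctrl of each pseudogene (y axis) against that of its parent (x axis) at d0, d4 and d6, 814 pairs per panel, with called pseudogenes in purple, the others in grey and the diagonal drawn. Called pseudogenes lie mostly near the diagonal, with Gm12859 at d4 and Gm16411 and Gm14630 at d6 away from it.

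At d0 the 5 largest falls, meaning lower in KO than in Ctrl, were in copies of genes with metabolic, cytoskeletal and other roles. Ak3l2-ps, a copy of Ak4 with 83.0% of windows in common with other transcripts, had 41.6, 46.1 and 35.3 TPM in Ctrl and 11.1, 7.08 and 8.9 TPM in KO, clear of each other. The difference was -2.08 ± 0.26 (limma, adjusted p = 1.52e-05), beside -2.06 for Ak4, a mitochondrial adenylate kinase. Gm6517, a copy of the myosin light chain gene Myl12a, fell by 1.21 (Myl12a by 1.36), and Gm17366, a copy of 1500009L16Rik, fell by 1.14 (parent by 1.60). Gm5417, almost identical to the vitamin K epoxide reductase gene Vkorc1l1, fell by 1.41, and Gm12722, a copy of the ubiquitin-conjugating enzyme gene Ube2e1, by 1.15 (Ube2e1 by 0.47). The calls of Gm6517, Gm17366 and Gm12722 were lost without the replicate 2 libraries (adjusted p = 0.016, 0.123 and 0.0851). Gm12722 was also lost without any 1 of the d0 libraries Ctrl replicate 2 (adjusted p = 0.0458), Ctrl replicate 3 (0.0251), KO replicate 1 (0.0269), KO replicate 2 (0.0292) and KO replicate 3 (0.0102), and without Ctrl d4 replicate 1 (0.0104) or KO d4 replicate 3 (0.0102). Gm17366 was lost without Ctrl d0 replicate 1 (0.0128), Ctrl d0 replicate 2 (0.0169), Ctrl d0 replicate 3 (0.0182) or KO d0 replicate 2 (0.0317).

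Among the 5 largest rises at d0, meaning higher in KO than in Ctrl, were Gm2022 and copies of a surface protein gene and of a Schlafen gene. Gm3810, a copy of the podoplanin gene Pdpn, had 6.52, 3.58 and 7.98 TPM in Ctrl and 19.4, 21 and 34 TPM in KO, without overlap (1.89 ± 0.34, limma adjusted p = 0.00037), and Pdpn differed by 1.05. Gm9157, a copy of Ebag9 that lies on an exon of Jpx, had 4.25, 2.53 and 5.63 against 11.9, 10.6 and 17.2 TPM (1.49 ± 0.27, adjusted p = 0.000344), while Ebag9 differed by 0.17 (adjusted p = 0.222). Gm11427, a duplicate of the Schlafen gene Slfn4, had 5.04, 5.64 and 9.43 against 18.5, 16.4 and 23.6 TPM (1.44, adjusted p = 0.000604, and 0.0255 without the replicate 2 libraries). 2210409E12Rik, which lies on an exon of Coil, had 20.02, 23.8 and 25.6 against 80.9, 72.9 and 74.2 TPM. Its call (1.68, adjusted p = 0.00668) was lost without any 1 of the 6 libraries of d0, at adjusted p of 0.0161 to 0.0254, and without the replicate 2 libraries (0.0293).

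At d0 the differences of the copies went with the chromosome of the parent. Chromosomes 8 and 12 were singled out after their values were seen. Genes on chromosomes 8 and 12 that are no pseudogenes had medians of 0.35 and 0.39 (KO minus Ctrl, log2), where the 17 chromosomes other than 6, 8 and 12 had medians of -0.18 to -0.06. Pseudogenes that lie on chromosome 8 or 12 with a parent elsewhere had medians of -0.06 (33 pseudogenes) and -0.09 (24). Pseudogenes that lie elsewhere but have a parent on 8 or 12 had medians of 0.37 (60) and 0.41 (38), and 52 of the 60 and 34 of the 38 were above 0. Of them 13 and 12 were called higher, where 10.6% of all genes were, and 0 lower by limma, where 16.4% of all genes were, with 0 at an unadjusted p below 0.05 and 0 by voom. These 13 and 12 are part of the 46 pseudogenes called higher at d0. For the 17 other chromosomes the medians by parent ran from -0.15 to 0.05, and for chromosome 6 the medians of genes, of pseudogenes on it and of pseudogenes with a parent on it were 0.09, -0.04 and 0.13. At d4 and d6 copies of parents on chromosome 8 had medians of -0.01 and -0.05 and those of parents on 12 of 0.18 and -0.05. The part of shared reads in this was not tested.

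**Figure D4:**
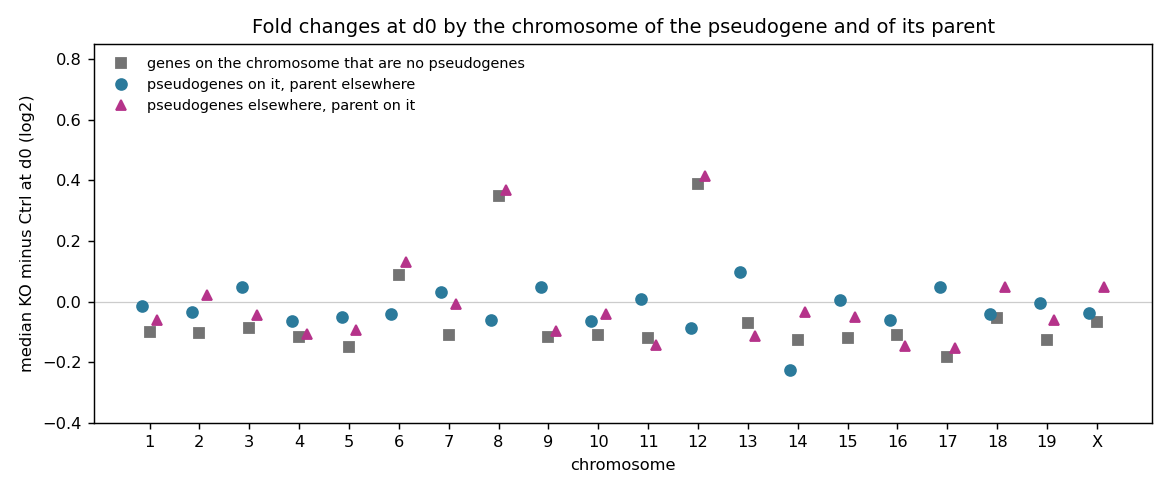
Median log2 difference KO minus Ctrl at d0 for each chromosome, for genes on it that are no pseudogenes (grey squares), pseudogenes on it with a parent elsewhere (blue circles) and pseudogenes elsewhere with a parent on it (purple triangles). On chromosomes 8 and 12 squares and triangles stand at 0.35 to 0.41 and circles at -0.06 and -0.09.

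Some pseudogenes had levels far above the parent. On the TPM scale, which is per length, 183 of the 814 copies had a higher mean than their parent and 18 a mean over 10 times as high. Rpl38-ps2 had a mean of 1790 TPM against 88.4 for Rpl38, a large-subunit gene, Rpl10a-ps1 1106 against 86.7 for Rpl10a, Dynlt1-ps1 1072 against 14.2 for the dynein light chain gene Dynlt1a, and Rpl3-ps1 973 against 11.1 for Rpl3. Rpl38-ps2, Rpl10a-ps1 and Dynlt1-ps1 match the parent without a mismatch. A read across a junction of 2 exons matches such a copy without a gap. The junction windows of Rpl38 and Dynlt1a are printed with their copies, with the bases of the later exon in capitals. The windows lie at chr11:114668949-114668966 and chr11:114671734-114671751 (plus) in Rpl38, chr6:140747091-140747126 (minus) in Rpl38-ps2, chr17:6317374-6317391 and chr17:6314941-6314958 (minus) in Dynlt1a and chr6:135349705-135349740 (minus) in Dynlt1-ps1.
Rpl38: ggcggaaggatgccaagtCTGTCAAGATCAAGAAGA
Rpl38-ps2: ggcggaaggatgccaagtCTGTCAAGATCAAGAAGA
Dynlt1a: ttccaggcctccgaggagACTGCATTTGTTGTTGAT
Dynlt1-ps1: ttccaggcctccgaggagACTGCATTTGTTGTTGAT

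The level relative to the parent was higher in pairs with a larger share of such windows. The median ratio of copy to parent was 0.113 in 155 pairs without a window equal to a parent junction, 0.225 in 379 pairs with up to 10% of windows, 0.661 in 162 pairs with 10% to 20% and 1.67 in 118 pairs with more. The copy was above the parent in 9.03%, 11.3%, 30.9% and 64.4% of the pairs. Identity and length were not held equal between these sets of pairs, and the part of junction reads in the levels was not tested. Among the 10 pseudogenes of highest mean TPM, the remaining ones were Rpl14-ps1, Gm5963 (Rps21), Gm11478 (Rpl13a), Gm14513 (Rps3), Gm14681, a copy of the nucleolar gene Npm1, and Mdk-ps1. Rpl14-ps1 had 1877 to 2056 TPM in Ctrl and 2405 to 2721 TPM in KO at d4 (0.38 ± 0.07, limma adjusted p = 0.000352), without overlap, and 0.015 without the replicate 2 libraries. The differences of the 10 at d4 ran from -1.73 for Mdk-ps1 to 0.56 for Gm14513 and Gm14681.

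**Figure D5:**
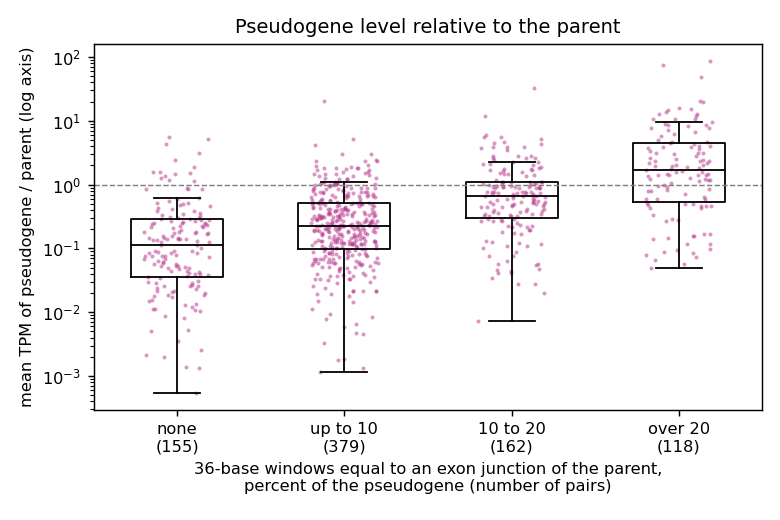
Ratio of the mean TPM of a pseudogene to that of its parent (log axis) by the percent of 36-base windows of the pseudogene that equal an exon junction of the parent, 1 point per pair, with boxes for the quartiles and medians. The medians climb from 0.113 without such windows to 1.67 with more than 20%, crossing the dashed line at a ratio of 1.

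Within Ctrl, 130 pseudogenes rose and 247 fell from d0 to d6, against 45.8% and 25.8% of all genes, and within KO 156 rose and 187 fell, against 40.3% and 27.4%. With median-ratio factors, which moved the median of all genes by -0.28 in Ctrl and -0.17 in KO, the numbers were 79 and 378, and 100 and 256. Shares of all genes with these factors are not given, so these numbers do not compare pseudogenes with other genes. Among the largest falls in both genotypes were Gm13929 (-5.58 in Ctrl and -4.45 in KO), Gm4222, which lies opposite to an exon of the olfactory receptor gene Olfr1270 (-4.33 and -5.85), H2-M6-ps of the histocompatibility complex (-3.78 and -4.95), Gm9697, a copy of the autophagy receptor gene Calcoco2 (-3.50 and -4.50), and Gm12892, a copy of the creatine kinase gene Ckb (-3.31 and -4.24). Among the largest rises were Mdk-ps1 (3.55 in Ctrl and 1.45 in KO), Gng2-ps1, a copy of a G protein gamma subunit gene (2.76 and 3.50), Gm16439, a copy of the mitophagy gene Bnip3 (2.75 and 3.77), and the olfactory receptor pseudogene Olfr1372-ps1 (3.22 and 4.58). The change over days differed between the genotypes in 194 pseudogenes by the moderated F test of limma, against 48.7% of all genes, and in 74 without the replicate 2 libraries.

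The polymorphic and unitary pseudogenes are few and are named in full. Hyi, which encodes hydroxypyruvate isomerase, rose from 1.48, 1.63 and 2.45 TPM at d0 to 16.8, 13.1 and 14.8 TPM at d6 in Ctrl, and from 1.45, 1.68 and 0.855 to 12.7, 17.8 and 10.2 in KO. The genotypes overlapped at d6 (-0.15, limma adjusted p = 0.534). H2-Bl, a class I histocompatibility gene, had 19.9, 19.1 and 20.9 TPM in Ctrl at d0 and 3.82, 3.24 and 1.79 at d6. Atp10d, which encodes a phospholipid transporting ATPase, was higher in KO on every day, with 8.63, 8.27 and 8.74 against 16.7, 17.4 and 12.1 TPM at d0 and 3.66, 4.64 and 4.74 against 10.7, 12.7 and 13.4 TPM at d6. No Ctrl library reached a KO library of the same day, and the d6 difference was 1.31 ± 0.13 (limma, adjusted p = 3.57e-07). Its calls at d0 and d4 were lost without the replicate 2 libraries (adjusted p = 0.0367 and 0.0121). Of the 2 unitary pseudogenes, 4930519F16Rik was higher in KO at d6 (0.88, adjusted p = 0.000989), and Slc2a4rg-ps rose by 1.14 from d0 to d6 in Ctrl.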

How the data were processed

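RNA was sequenced by the authors as single reads of 36 bases, aligned with TopHat2 2.0.13 to GRCm38 and counted per gene with featureCounts 1.4.6. The deposited values are TPM, made by the authors, who left out noncoding RNAs of short length, kept genes that reached 5 TPM in 3 samples, and dropped the 20% of genes that varied least. DESeq2 was used by the authors for their own comparisons. The deposited table also has variance, standard deviation and variability scores per gene over all libraries, which were not used. Of 11046 rows, 81 repeat an identifier and the first row was kept, leaving 10965 genes. The 1189 pseudogenes and all gene lists were chosen with earlier results of these data known.

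Groups came from the labels, and the study speaks of 3 independent experiments for each stage. Nothing else says that libraries of a group came from separate cultures, so p-values measure the spread between these libraries, which may be technical. Fits used limma 3.58.1 in R 4.3.3 on log2(TPM + 1) with 6 group means over all 18 libraries and all 10965 genes, with a trended prior and Benjamini-Hochberg adjustment over all genes. A call is an adjusted p below 0.01. Fold changes on this scale understate the change of low genes. Reads were recovered from TPM, since 1 read had been added per gene and values divided by length: all genes came out whole within 1e-06. These recovered counts of the deposited table were used for depth and for voom, as an alternative to the TPM fit. Parents were sought with blastn 2.17.0+ against GENCODE M21 protein-coding transcripts (e-value at most 1e-05, at least 50% of the copy covered) and by symbol. Ratios of copy to parent were compared with exact permutation tests over 6 libraries, which cannot go below 0.1. Named were the 5 largest called changes without overlap per day and direction, the 10 pseudogenes of highest mean TPM, those whose symbol names a parent, those called opposite to their parent, the 5 largest called changes from d0 to d6 per genotype and direction, biotypes of 10 or fewer, and copies of genes the study names. Not every pseudogene that this rule picks is described, and a result is not reported here. Scripts were tested on simulated data. Alternatives were other pseudocounts, filters, scalings, priors and sample sets, voom, a replicate block and leaving out libraries. Python 3.11.15 with pandas 2.3.3 was used for the rest.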

Additional observations from a re-analysis of the deposited data

Results flagged for a closer look

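By the moderated F test of limma over both interaction terms, 194 pseudogenes changed over the days differently in KO than in Ctrl (Benjamini-Hochberg adjusted p below 0.01), and those among them that the naming rule picked are given here with the difference between the genotypes in the change from d0 to d6, on the log2 scale. The change was higher in KO by 3.85 for Tdgf1-ps1 (adjusted p = 1.15e-06), 1.71 for Gm6083, 1.96 for Gm6798 and 2.22 for Gm15310, all copies of pluripotency genes, and by 1.42 for Dppa3-ps, whose difference arose between d4 and d6. It was higher by 1.13 for Gm13929, 2.43 for Gm3470, 1.51 for Gm7765, 2.32 for Gm6030, 2.19 for Rps24-ps2, 1.67 for Gm14630 and 0.64 for Gm7284, an unprocessed pseudogene whose difference at d4 was 1.68.

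The change was lower in KO by 2.11 on the log2 scale for Mdk-ps1 (-2.11, adjusted p = 1.04e-08). For the Tmem92 copies the differences were -2.30 (Gm11543), -2.29 (Gm11544), -2.50 (Gm11545), -2.83 (Gm11546) and -3.34 (AA623943). Further negative differences were -2.15 for Gm6189, -3.73 for Gm2022, -1.63 for Gm12859, -2.46 for Fam181b and -2.07 for Gm715.

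A further set of pseudogenes was named for a difference at d0. Those lower in KO at d0 changed more in KO by 1.5 (Ak3l2-ps), 1.60 (Gm6517), 1.30 (Gm17366) and 1.47 (Gm5417), and those higher in KO at d0 by -1.69 (Gm3810), -1.64 (Gm9157) and -2.59 (2210409E12Rik). They were named for a large difference at d0, which is subtracted in these values, so the direction was largely set by the choice. The same holds in part for Gm2022 above. A d0 difference is also subtracted in the value of Dppa3-ps, which was lower in KO at d0. It is in those of the Tmem92 copies too, where all 6 were above 0 at d0, by 0.43 to 1.35. Among pseudogenes of the highest level the differences were 0.31 (Rpl14-ps1), 0.83 (Gm14513), 0.30 (Gm14681) and 0.43 (Rpl3-ps1). The remaining ones were -0.63 for Gm16411, -0.93 for Gm12892, -1.52 for Gm4222 and -1.0 for Gm9697. No group of 3 libraries was tested for outliers.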

How the results depend on the processing

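With each summary value taken under each alternative in turn, 320 of these comparisons held, 43 moved and 4 reversed. A count held if it stayed near that of the main fit, and a ratio of summed TPM if it kept its sign. Many alternatives left out a library of another day, which bears on a count mainly through the shared spread, so the 320 are not separate results. The counts below are not set against the shares of all genes. Without the 6 replicate 2 libraries, an alternative chosen after seeing the data, as were those on unshared windows and voom with a replicate block, 19 pseudogenes were higher and 17 lower in KO at d0, 35 and 22 at d4 and 88 and 48 at d6, and 74 differed in course. Pseudogenes with no shared window gave 3 and 0, 2 and 1, and 6 and 1, 7 higher and 9 lower from d0 to d6 in Ctrl, 7 and 4 in KO, and 6 in course. Median-ratio factors gave 19 lower at d0, 205 and 31 at d4, 222 and 51 at d6, 79 and 378 in Ctrl and 100 higher in KO. Quantile normalization gave 15 lower at d0, 180 and 32 at d4, 223 higher at d6 and 385 lower in Ctrl. Voom gave 12, 32 and 49 lower at d0, d4 and d6, and voom with a replicate block 15, 31 and 50. Leaving out single libraries gave 31 to 52 higher and 16 to 35 lower at d0, 77 to 126 and 38 to 63 at d4, 109 to 139 and 66 to 89 at d6, 113 to 135 and 208 to 249 in Ctrl, 128 to 158 and 154 to 190 in KO, and 148 to 194 in course. The 32 lower at d0 became 19, 17, 16 and 19 without Ctrl d0 replicate 2 or 3 or KO d0 replicate 1 or 3, and the 118 higher at d4 became 78 and 77 without Ctrl d4 replicate 2 or 3. The log2 ratio of summed TPM at d0 turned from -0.01 to 0.0374 with median-ratio factors and 0.0392 without the replicate 2 libraries, and ran from -0.0326 (without KO d0 replicate 3) to 0.0261 (without KO d0 replicate 2) when 1 library was left out, at 0.00443 without Ctrl d0 replicate 2. It ran from 0.16 to 0.23 at d4 and from 0.14 to 0.19 at d6.

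Same-numbered libraries deviated together in pseudogenes (median r = 0.33, lowest -0.01) but not in other genes (median 0.01). Without the 50 pseudogenes raised in replicate 2 the median was 0.17 and the lowest -0.05, and the numbers were not taken as pairs. With the replicate block 45 pseudogenes were higher and 26 lower at d0, 125 and 61 at d4, and 137 and 89 at d6. Of 157 called values of named pseudogenes, 100 were called under every alternative, 46 were lost without the replicate 2 libraries, 24 under a scaling, 8 in the block and 26 without 1 library. Leaving out libraries also leaves fewer per group. A call of 4930519F16Rik at d6 was lost in a fit of the compared groups alone (adjusted p = 0.0276). Pseudogenes had a median of 31 to 49 reads per library, and what size of difference this depth can show was not tested.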
